A study of Mus musculus with 8 samples.

Results

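Iron-treated Slc39a8 knockout hepatocytes were compared with untreated knockout hepatocytes. The comparison used 3 of the 8 RNA-seq libraries of the series, 1 of iron-treated and 2 of untreated cells, and its members were the 12435 protein-coding genes tested, of 15468 genes tested and 55450 in the files. They were chosen by gene class alone, and 7 protein-coding entries with a pseudogene-type symbol (ending in -ps) were left out. All libraries came from primary hepatocytes of C57BL/6 mice at postnatal week 8, kept in serum-free medium with 10 µM dexamethasone. WT cells carried floxed alleles, Slc39a8(F/F), and were labelled wild type. LSKO (liver-specific knockout) cells were Alb-cre(+/+);Slc39a8(F/F), in which Cre is driven by the albumin promoter and therefore acts mainly in hepatocytes, so other liver cells in a culture may keep the gene. Untreated LSKO and untreated WT cells gave 2 libraries each. LSKO cells given ferrous chloride, manganese chloride, sodium selenite or zinc chloride at 2 µM for 24 h (overnight in the design text) gave 1 library each, so every treated group was LSKO and no WT cells received iron. Whether the replicates came from separate animals was not given, and p-values then measure the spread between these libraries, which may be technical.

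Slc39a8 encodes ZIP8, a membrane transporter that carries iron, manganese, zinc and selenite into cells. Hepatocytes are the main iron store of the body and the source of hepcidin, the hormone that limits iron release into the blood. When the cell holds little iron, iron regulatory proteins bind a stem-loop in certain mRNAs, the iron-responsive element (IRE), which stabilizes the transferrin receptor mRNA and blocks translation of ferritin mRNA. Iron in the blood and liver raises hepcidin through bone morphogenetic protein (BMP) ligands and SMAD factors.

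Slc39a8 (ENSMUSG00000053897, chr3:135825279-135888572 on GRCm38) had 12.7 and 15.5 normalized CPM in WT cells, 8.15 and 1.88 in untreated LSKO cells and 2.34 with iron. CPM, counts scaled to a common library size, were normalized by edgeR's trimmed mean of M-values (TMM), so that levels of 1 gene compare between libraries. The iron library lay between the untreated LSKO libraries, which differed from each other more than they differed from it. The log2 fold change of iron against untreated LSKO was -1.07 (standard error 0.672, edgeR adjusted p = 0.33), and leaving out LSKO replicate 1 gave 0.29, while leaving out replicate 2 gave -1.81, which was called, so its direction rests on replicate 1.

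The IREs of the tested genes are shown because they mark the mRNAs that iron regulatory proteins are known to bind. The search, on the transcript strand only, took an unpaired C, 5 upper-stem bases, the loop CAGTG and any base but G, and required all 5 upper-stem pairs (G-U allowed) and at least 4 of 5 lower-stem pairs. In 5′UTRs it found 4 of 12336 genes (0.0324%), Fth1, Ftl1, Slc40a1 and Alas2, and in 3′UTRs 6 of 12375 genes (0.0485%), among them Tfrc with 4 elements. The letters alone, without the stem, were present in 9.62% of 5′UTRs and 40.5% of 3′UTRs. The elements of Fth1 and Tfrc, which were called, and of Ftl1 and Slc40a1, which were not, follow. They are from GENCODE M21 transcripts on GRCm38, with the 6 loop bases in capitals.
Fth1, 5′UTR, chr19:9982733-9982759, plus strand: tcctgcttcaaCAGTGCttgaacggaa
Ftl1, 5′UTR, chr7:45459780-45459806, minus strand: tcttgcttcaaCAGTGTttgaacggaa
Slc40a1, 5′UTR, chr1:45925466-45925492, minus strand: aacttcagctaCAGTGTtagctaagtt
Tfrc, 3′UTR, chr16:32631220-32631246, plus strand: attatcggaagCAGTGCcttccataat
Tfrc, 3′UTR, chr16:32631599-32631625, plus strand: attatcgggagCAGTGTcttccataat
Tfrc, 3′UTR, chr16:32631664-32631690, plus strand: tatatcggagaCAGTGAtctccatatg
Tfrc, 3′UTR, chr16:32631711-32631737, plus strand: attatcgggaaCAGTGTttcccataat
A match describes these letters and pairs and is not a measured binding site.

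With iron, 347 protein-coding genes were higher and 537 lower than in untreated LSKO cells, which is 2.79% and 4.32% of those tested. Together they are 7.11%, and over all 15468 genes of any class 3.8% were higher and 4.89% lower. The counts of called genes in each list below are to be read beside 2.79% higher and 4.32% lower. Called genes had an adjusted p under 0.05 in edgeR's quasi-likelihood test and a change of over 0.5 on the log2 scale, up or down. The median change of all 12435 genes was -0.00. Falls were larger than rises: 259 of the lower genes and 76 of the higher genes changed by more than 1 on the log2 scale. In 271 of the 347 higher genes (78.1%) the iron library was above all 7 other libraries, against 20.1% of all protein-coding genes tested. In 438 of the 537 lower genes (81.6%) it was below all 7, against 16.4% of all. These positions are given as a description, since the untreated LSKO libraries that define the calls are among the 7.

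**Figure D1:**
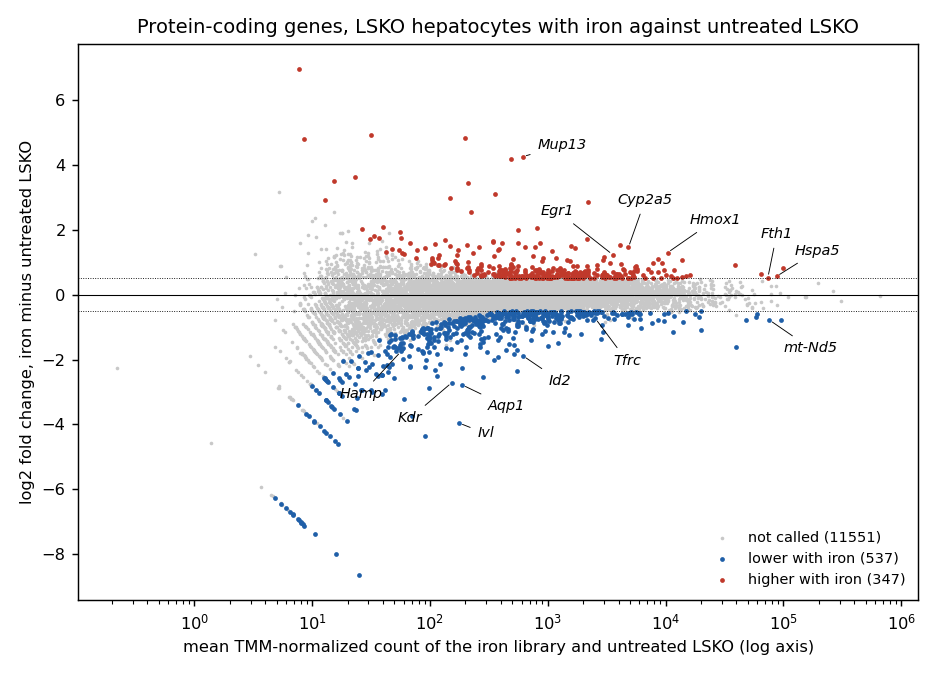
Log2 fold change of iron against untreated LSKO cells (vertical axis) for each of 12435 protein-coding genes by its mean normalized count over both groups (horizontal log axis), with 347 genes called higher in red, 537 called lower in blue and dotted lines at -0.5 and 0.5. Falls reach further than rises, and the diagonal rows at the lower left are genes of few reads, among them 24 with no read in the iron library, whose fitted change has no meaning as a size.

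The iron library was the shallowest, with 19943899 reads in genes against 21886740 and 26837212 in the untreated LSKO libraries and up to 27731054 elsewhere, so a low gene rests on fewer reads there. The untreated LSKO replicates differed more than the WT replicates: chi-square of their counts over genes, divided by its degrees of freedom, was 13.3 against 5.98. Reads set aside in counting also differed between libraries. The untreated LSKO libraries held 0 reads marked as low in alignment quality and 9.44% and 10% unaligned reads, whereas the iron library held 595338 and 4.94%. The WT, selenite and zinc libraries resembled the iron library, with 592678 to 680199 low-quality reads and 4.12% to 4.85% unaligned. The manganese library stood apart in the share of reads in genes (72.2% against 39.3% to 42.1%), and without it 348 genes were higher and 535 lower. It held 4.48% of reads in no gene and 5.18% ambiguous, against 44.8% and 1.49% in the iron library. Its levels of genes that overlap an opposite-strand exon may therefore not compare with those of the other libraries. In low-quality and unaligned reads the manganese library resembled the untreated LSKO pair, with 62 low-quality reads and 8.79% unaligned. This difference between iron and untreated LSKO runs with the comparison and cannot be told apart from iron. In 348 genes all 5 libraries of WT, iron, selenite and zinc were above the untreated LSKO pair and manganese, of which 58 were called higher. Of the 58, 51 (87.9%) hold a stretch of 75 bases found in another gene, against 61.2% of the 348 and 29% of all genes tested. Of the 231 genes with the opposite pattern, 15 were called lower and 7 of them share such a stretch (46.7%, against 26.8% of the 231). The strand setting of the counting is not given in the sources used here, so a gene that overlaps an exon on the opposite strand cannot be told from its partner. This holds for 4027 of the genes tested (32.4%). Of the genes named here it holds for Ftl1, Slc11a2, Bmp6, Stat3, Alas1, Alas2, Cpox, Slc48a1, Gclm, Sqstm1, Uimc1, Nphs1, Arg2, Nr1d1, Foxq1, Hspa1a, Dnajb9, Ppp1r15a, Gadd45a, Ndrg1, Irs2, Fosl1, Jun, Dusp1, Arntl and Cebpa. It also holds for Gpr182, Clec4g, Xirp2, Ccnd1, Palmd, Mcm7, Tagln, Col5a1, Lox, Dll4, Ikbke, Vcam1, Irf1, Irf7, Cxcl10, Bdh1, Setd1a, mt-Co1, mt-Nd5 and mt-Nd6. Apoa5 and Gbp2, named in the last section, overlap such an exon too.

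Iron uptake genes moved down in part: 4 of the 13 tested were lower, none was higher, and the median was -0.19 (-0.086 without LSKO replicate 2). Tfrc (ENSMUSG00000022797, chr16:32608920-32632794), the transferrin receptor that brings transferrin-bound iron into the cell, had 123 and 121 CPM in WT, 127 and 137 in untreated LSKO and 80.1 with iron. Manganese, selenite and zinc gave 222, 190 and 203 CPM, so the iron library was the lowest of the 8 and did not overlap any group. Its log2 fold change was -0.72 (standard error 0.0969, edgeR adjusted p = 0.00115), and the call held with WT as the control (-0.60) and with the mean of selenite and zinc as the control (-1.29). Steap4, a metalloreductase of iron and copper, had 26.3 and 38.7 CPM in untreated LSKO and 11 with iron, a fall of 1.57 on the log2 scale (edgeR adjusted p = 0.00228), and the iron library was again below all others. Against WT cells, which had 16.1 and 12.6 CPM, Steap4 had -0.39 and was not called. Steap2, of the same reductase family, and Cd163, the haemoglobin scavenger receptor of macrophages, fell by 0.58 and 1.05. Both calls rested on the whole set of libraries: Steap2 was lost without LSKO replicate 1 (-0.46), Cd163 without LSKO replicate 2 (-0.89), and both without either WT library. The iron importers Slc39a14 and Slc11a2 (-0.19 and 0.11), transferrin itself (Trf, 0.09) and the second transferrin receptor Tfr2 (0.20) were not called.

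Among 11 storage, export and ferritin turnover genes, 1 was higher and none lower, with a median of 0.22. Fth1 (ENSMUSG00000024661, chr19:9980598-9985098), the ferritin heavy chain, had 2491 and 2608 CPM in untreated LSKO and 3664 with iron. WT cells had 2564 and 2448 CPM, and manganese, selenite and zinc gave 2923, 3170 and 3335, so the iron library was the highest of the 8. The log2 fold change was 0.52 (standard error 0.0921, edgeR adjusted p = 0.00519). It stood just over the threshold of 0.5, came to 0.47 without LSKO replicate 1, and was 0.17 against selenite and zinc. The ferritin light chain Ftl1 had 3413 and 3206 CPM in untreated LSKO and 3971 with iron, the highest of the 8 libraries, with 0.26 (edgeR adjusted p = 0.0908). The iron exporter Slc40a1 (ferroportin) had 146 and 138 CPM in untreated LSKO and 165 with iron, also the highest, with 0.22 (edgeR adjusted p = 0.138). Neither passed the test, and 61.2% of the Ftl1 transcript lies in stretches shared with other genes. The iron regulatory protein genes Aco1 and Ireb2 had -0.22 and -0.21 (edgeR adjusted p = 0.138 and 0.174), each with the iron library the lowest of the 8, and none of the 11 genes of the iron sensing list was called. Alas2, the erythroid haem synthesis enzyme and the fourth gene with a 5′UTR element, had 35 and 67 reads in untreated LSKO and 25 with iron, the lowest of the 8 libraries in CPM, with -0.70, and was not called. Of the other 3′UTR genes that the IRE search found, Glyat was lower (-0.85), and Fbxl14, Trim23, Zbtb44 and 2010111I01Rik were not called.

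**Figure D2:**
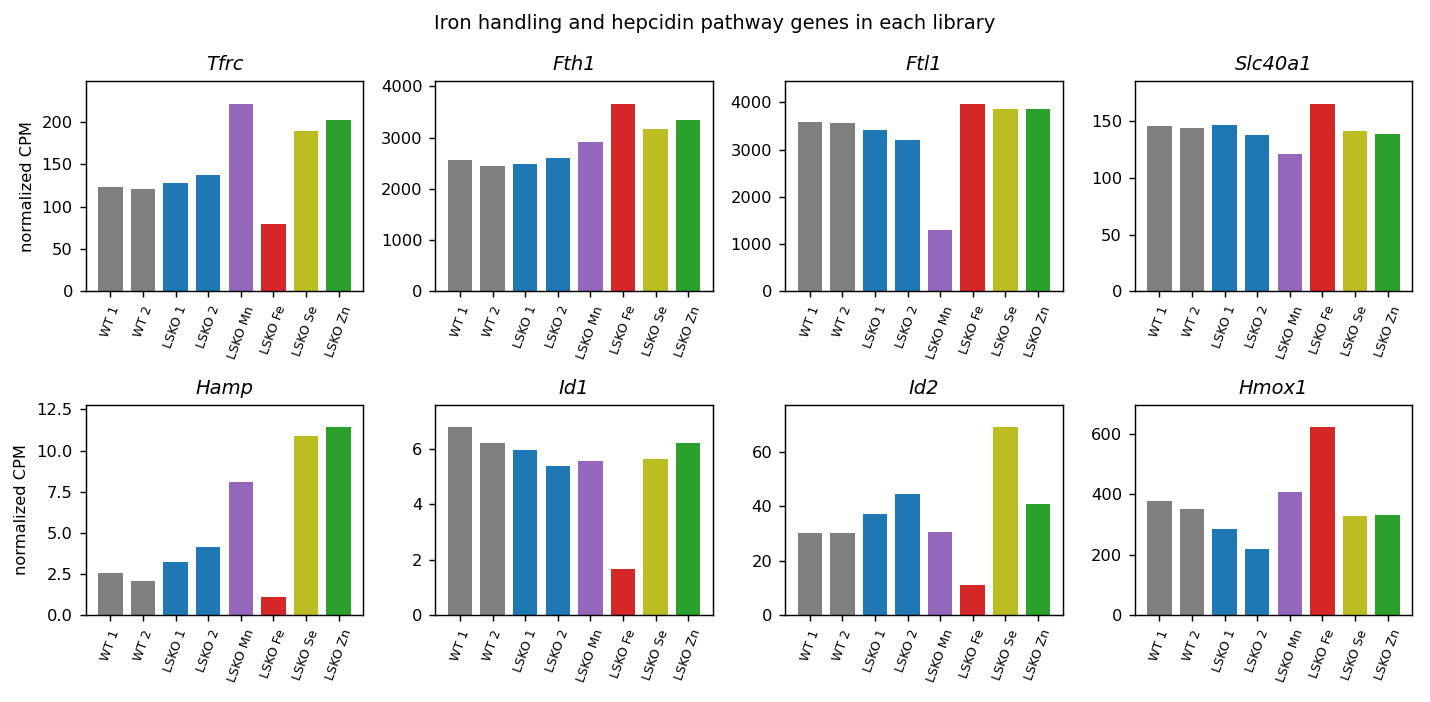
Normalized CPM (vertical axes, from 0) of 8 genes of iron handling and the hepcidin pathway in each of the 8 libraries, 1 bar per library, with WT in grey, untreated LSKO in blue and the LSKO libraries given manganese (Mn), iron (Fe), selenite (Se) and zinc (Zn) in other colours. The iron bar is the lowest for Tfrc, Hamp, Id1 and Id2 and the highest for Fth1, Ftl1, Slc40a1 and Hmox1.

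In the hepcidin and BMP-SMAD list, 6 of 23 genes were lower, none was higher, and the median was -0.02 (-0.13 without LSKO replicate 2). Hamp (ENSMUSG00000050440, chr7:30942368-30944032), which encodes hepcidin, had 3.22 and 4.16 CPM in untreated LSKO (73 and 113 reads) and 1.10 with iron (22 reads). WT cells had 2.57 and 2.09 CPM, and manganese, selenite and zinc gave 8.09, 10.9 and 11.4, so the iron library was the lowest of the 8 and the other 3 treated libraries were the highest. The log2 fold change was -1.75 (standard error 0.341, edgeR adjusted p = 0.00878). It was -3.34 against selenite and zinc, and -1.09 against WT, where it missed the threshold (edgeR adjusted p = 0.0659).

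The stretch before the Hamp start site is shown because BMP signals and the cytokine factor STAT3 are known to act on it. It covers bases 150 to 1 before the start on the minus strand of GRCm38.p6, chr7:30944030-30944179, from RefSeq.
Hamp: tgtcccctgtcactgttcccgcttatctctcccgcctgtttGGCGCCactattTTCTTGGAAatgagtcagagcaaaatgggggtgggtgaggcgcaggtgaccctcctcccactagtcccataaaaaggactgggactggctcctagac
The capitals mark GGCGCC, the core of the BMP-responsive element, 109 to 104 bases before the start, and TTCTTGGAA, a STAT site, 97 to 89 bases before it. The motifs do not overlap each other. Searched on both strands over the 300 bases around the start of 32851 promoters, GGCGCC was present in 11.9% and TTCTTGGAA in 0.417%, and 7 promoters (0.0213%) held both.

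The inhibitor of DNA binding genes, which BMP-SMAD signals are known to switch on, fell with iron. Id1 had 5.95 and 5.37 CPM in untreated LSKO and 1.64 with iron (33 reads), against 5.55 to 6.77 in the 5 libraries of WT, manganese, selenite and zinc, a fall of 1.78 on the log2 scale (standard error 0.279, edgeR adjusted p = 0.00278). Id2 had 37.3 and 44.5 CPM in untreated LSKO and 11.1 with iron, a fall of 1.89 (standard error 0.151, edgeR adjusted p = 3.5e-05), and Id3 had 25.5 and 24.2 and then 12.3 (-1.01, standard error 0.157, edgeR adjusted p = 0.00254). For all 3 the iron library was below every other library, and all 3 were called against WT and against selenite and zinc as well. The ligand Bmp2, which liver endothelial cells make, and the receptor Bmpr2 also fell, by 1.22 and 0.60. The Bmp2 call was lost without either WT library, and neither gene was called against selenite and zinc (-0.34 and -0.23). Bmp6, the other main hepcidin-inducing ligand of liver endothelium, had 0.51 and was not called. Smad1, Smad5, Smad4 and the inhibitory Smad7 lay between -0.01 and 0.11, and the hepcidin suppressor Tmprss6 had 0.18. The cytokine arm showed no call, with Stat3 at 0.33 and its target Socs3 at 0.13. Bmp2 is also an endothelial marker, and those markers were low with iron as described below.

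Of 19 genes of haem synthesis and breakdown 2 were higher and 1 was lower, with a median of 0.12. Hmox1 (ENSMUSG00000005413, chr8:75093621-75100589), the inducible haem oxygenase that releases iron from haem, had 378 and 353 CPM in WT, 286 and 220 in untreated LSKO and 622 with iron, above manganese (406), selenite (327) and zinc (331). The log2 fold change was 1.30 (standard error 0.13, edgeR adjusted p = 0.00017), and it was 0.77 against WT and 0.92 against selenite and zinc, called in both. Slc48a1, which carries haem out of lysosomes, rose by 0.52 and fell short of the threshold of 0.5 without LSKO replicate 2 (0.45). Abcg2, an exporter of porphyrins and drugs, fell by 0.64 (edgeR adjusted p = 0.0019). The other 16 genes, among them the synthesis enzymes Alas1 (0.37), Cpox (0.12) and Fech (0.14), were not called. Iron-sulphur cluster genes had 1 lower gene of 21 (4.76%, against 4.32% of all protein-coding genes tested). It was Fdx1 (-0.51), which was lost without LSKO replicate 2 (-0.33), without either WT library and against WT (-0.08).

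Of 26 NRF2 targets and ferroptosis control genes, 5 were higher, 2 lower, and the median was 0.17. Srxn1 (sulfiredoxin) had 342 and 389 CPM in untreated LSKO and 622 with iron, close to the 628 of manganese (0.77, edgeR adjusted p = 0.000975). Gclm, the modifier subunit of the glutathione synthesis enzyme, had 125 in both untreated LSKO libraries and 194 with iron, and Txnrd1 (thioredoxin reductase) had 517 and 478 and then 748. Their log2 fold changes were 0.63 and 0.59, with the iron library above all others for both. Pgd and Slc3a2 rose by 0.51 and 0.50. The lower genes were Tfrc and Nfe2l2, the NRF2 gene itself (-0.56, 252 and 262 CPM against 174). Gpx4, the enzyme that reduces lipid peroxides, had 0.08, and the cystine transporter Slc7a11 had 0.68 with untreated LSKO libraries of 124 and 75.7 CPM and was not called. Sqstm1, an abundant autophagy receptor and NRF2 target outside the list and chosen after its values were seen, had 3426 and 2562 CPM in untreated LSKO and 5320 with iron, the highest of the 8 libraries (0.83).

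Most of the largest rises were in genes that share sequence with close copies. Genes were ranked for the largest changes from a mean normalized count of 100 upward. Mup13, a major urinary protein gene, had 2.33 and 2.76 CPM in untreated LSKO and 49.1 with iron (4.26, edgeR adjusted p = 6.75e-08), but 31.2 and 26 in WT, 113 with selenite and 96.9 with zinc. Of 20 Mup genes tested, 8 were higher, in none did the iron library lie outside the other 7, and 19 of the 20 share stretches with other genes. Leaving out LSKO replicate 1 moved their median from 0.56 to 0.34, and leaving out replicate 2 moved it to 1.11. The 7 of them compared with selenite and zinc had negative changes there, from -0.49 (Mup22) to -1.37 (Mup8). Rps27rt, Srp54b, Eno1b, Gsta1 and the Ptp4a1 entry ENSMUSG00000117310 rose by 1.54 to 3.10, and 83.1% to 94.1% of each transcript is shared with other genes. Uimc1 (41.5 and 42.7 CPM against 139) and Nphs1 (2.64 and 2.65 against 8.62) overlap an exon on the opposite strand, and stood at 152 in both WT libraries and at 8.81 and 11.9. Their changes against WT were -0.13 and -0.26. The rises named in this paragraph are uncertain, since reads of near copies or of overlapping genes can be counted for either gene.

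Other large rises were in genes that share none or part of their sequence, and for those named next, other than Bex2, the iron library was above all 7 others. Areg, which encodes the growth factor amphiregulin, had 9.34 and 4.78 CPM in untreated LSKO and 21.7 with iron (1.64, edgeR adjusted p = 0.0047). Arg2, the mitochondrial arginase, had 4.01 and 4.89 and then 12.9 (1.53, edgeR adjusted p = 0.00116), though selenite gave 12.2. Cyp2a5, a P450 that metabolizes coumarin and nicotine, had 93.9 and 123 in untreated LSKO, 299 with iron and 238 with selenite (1.46, edgeR adjusted p = 8.19e-05). These 3 changes were called against WT cells as well. The nuclear receptor and clock repressor Nr1d1 rose from 10.7 and 6.95 to 23.3 (1.41) and the transcription factor Foxq1 from 8.85 and 8.72 to 22.9 (1.38). Nr1d1, Foxq1 and Arg2 overlap an exon of a gene on the opposite strand. Serpinb9g, a serine protease inhibitor with close copies, had 2.86 and 3.61 CPM in untreated LSKO and 9.22 with iron, and Bex2 2.42 and 2.32 and then 6.98 (1.56), below the 7.58 of manganese. Hspa1a, also above all other libraries, is described with the heat shock genes.

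In all but 1 of the 12 largest falls, mt-Co3, the iron library was the lowest of the 8. Ivl, a precursor of the cornified envelope, had 10.8 and 17.2 CPM in untreated LSKO and 0.897 with iron (-3.96, standard error 0.398, edgeR adjusted p = 0.00017). Sprr1a, another cornified envelope gene and chosen after its values were seen, had 2738 and 2277 CPM in untreated LSKO and 816 with iron (-1.62), with 3097 and 2960 in WT, 1235 with manganese and 1510 with zinc. Itga2, a collagen-binding integrin, had 24.9 and 16 and then 3.49 (-2.54), and the filamin Flnc 7.58 and 8.98 and then 1.45 (-2.52). The retinoic acid-degrading enzymes Cyp26a1 and Cyp26b1 fell by 2.27 and 2.31, from 10.8 and 15.1 to 2.69 CPM and from 10.2 and 5.3 to 1.54. Plat, the tissue plasminogen activator, had 21.6 and 25.8 CPM and then 5.93 (-2.00), and Zfp970, a zinc finger gene, 38.5 and 39.2 and then 7.63 (-2.35). The water channel Aqp1 had 16.7 and 10.9 and then 1.99 (-2.78). Some of these falls were shared in part. With manganese, selenite and zinc Aqp1 had 6.86, 5.14 and 5.91 CPM, and Flnc 2.03, 3.95 and 3.87. In the same libraries Ivl had 3.47, 14.1 and 3.30, Cyp26a1 12.8, 10.9 and 10.0, and Zfp970 16.3, 43.5 and 47.9. Kdr and Gpr182 are described with the endothelial markers, and Id2 is given above. Cyp26b1 was not called against selenite and zinc (-0.81), where selenite alone had 1.73 CPM. The next 5 genes below all other libraries were Xirp2, Rasgrp3, Spp1, Ccnd1 and Palmd, with falls of 1.69 to 1.83, and the call of Xirp2 was lost without WT replicate 1. Ccnd1 (cyclin D1) had 19.7 and 20.2 CPM in untreated LSKO and 5.88 with iron, beside 6.02 with manganese. Ccnd1 overlaps an opposite-strand exon, so its manganese level may not compare with those of the other libraries.

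**Figure D3:**
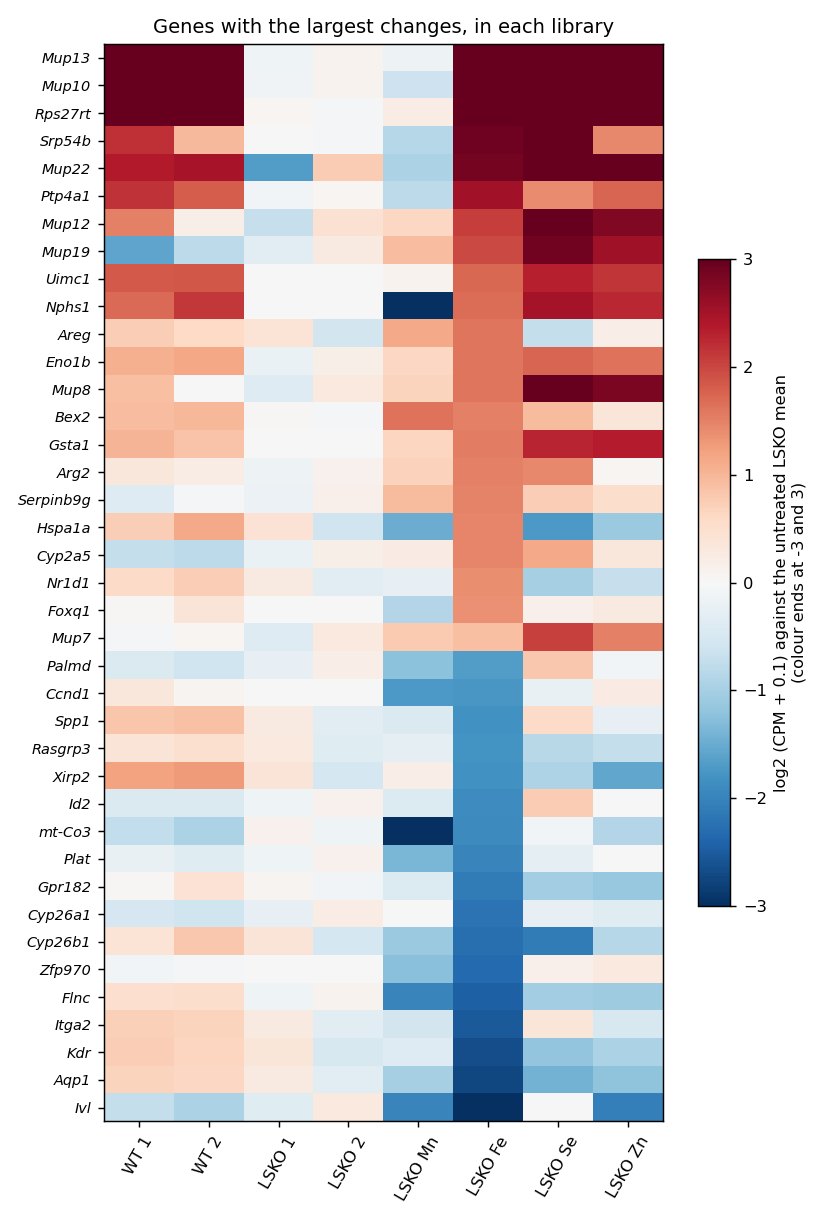
Log2 of (normalized CPM + 0.1) in each library relative to the untreated LSKO mean, as colour from -3 (blue) to 3 (red), for the genes with the largest rises and falls and those with the iron library outside the other 7, ordered by the iron change. Several rows at the top are red in WT, iron, selenite and zinc alike, whereas Areg and Foxq1 and most rows of the falls have their strongest colour in the iron column.

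Markers of endothelial, stellate and Kupffer cells held lower calls and no higher ones, and hepatocyte markers held 1 of each. All 15 endothelial markers had a negative change, 12 were called lower, and the median was -1.06. Their summed level was 372 and 400 CPM in WT, 309 and 238 in untreated LSKO and 141 with iron, with 265, 189 and 190 for manganese, selenite and zinc. The vascular endothelial growth factor receptor Kdr had 14.4 and 8.02 CPM in untreated LSKO and 1.69 with iron (-2.71, edgeR adjusted p = 0.0017), and the receptor Gpr182 had 8.9 and 7.98 and then 1.89 (-2.15). Clec4g, a lectin of sinusoidal endothelium, had 196 and 162 reads in untreated LSKO and 7 with iron, while Cdh5 had 35.8 and 30.4 CPM and then 27.4 and was not called. Against selenite and zinc the endothelial median was -0.40 and 5 of the 15 were called. In bulk RNA, fewer cells of a type and less RNA per cell cannot be told apart.

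Stellate cell and fibroblast markers had 7 of 14 lower, none higher, and a median of -1.15. Their sum was 82.8 and 83.8 CPM in untreated LSKO, 76.8 and 82.1 in WT and 39.8 with iron. Acta2 (smooth muscle actin) had 156 and 112 reads in untreated LSKO and 8 with iron, and Col3a1 had 6.96 and 5.63 CPM and then 1.35. Colec11 had 13 and 29 reads and then 1, and its call was lost without LSKO replicate 2 or either WT library. Kupffer cell and macrophage markers had 6 of 17 lower, none higher, and a median of -0.80, led by the complement genes C1qa (14.7 and 18.9 CPM, then 5.48) and C1qb, and by Vsig4 and Clec4f. Their sum did not fall (457 and 526 CPM in untreated LSKO, 553 with iron), because Cd68 and Cd14 make up most of it and had 263 and 192 CPM with iron against 178 to 202 and 135 to 158. C1qc and Ctss were the other lower genes, Timd4 was at 0 with iron and with selenite (6 and 9 reads in untreated LSKO, 9 and 1 in WT), and the Clec4f call was lost without either WT library and against WT (-0.07). The cholangiocyte markers Spp1 and Krt19 fell by 1.82 and 1.41, with Sox9 (0.05) not called, and the list's sum was 75.7 and 62.1 CPM in untreated LSKO and 34.5 with iron, with Muc1 and Cftr among 3 of its 10 genes at 0 there. No lymphocyte marker passed the count filter, with 10 of 13 at 0 in the iron library, and 5 of 9 erythroid markers were at 0 there. In both untreated LSKO libraries 8 and 3 of them were at 0 too, and the summed lymphocyte level with iron, 0.349 CPM, was the highest of the 8.

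Among 12 hepatocyte markers 1 was higher (Tat, 0.91), 1 lower (Fgb, -0.69), and the median was -0.14, with -0.32 without LSKO replicate 1 and 0.097 without LSKO replicate 2. Albumin (Alb) had 25150 and 31506 CPM in untreated LSKO and 27350 with iron. The hepatocyte sum was 28929 and 37024 CPM in untreated LSKO, 30818 with iron and 20629 and 19599 in WT, so the iron library lay between its controls. The call of Fgb was lost without LSKO replicate 2 (-0.38) or either WT library. Markers of the other cells moved with the falls of collagen, integrin, BMP2, Notch and contractile genes, and their part in those results was not tested. Some of these are the same genes. Col3a1 is both a stellate marker and in the matrix list, Acta2 is both a stellate marker and in the actin list, and Bmp2 is an endothelial marker.

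**Figure D4:**
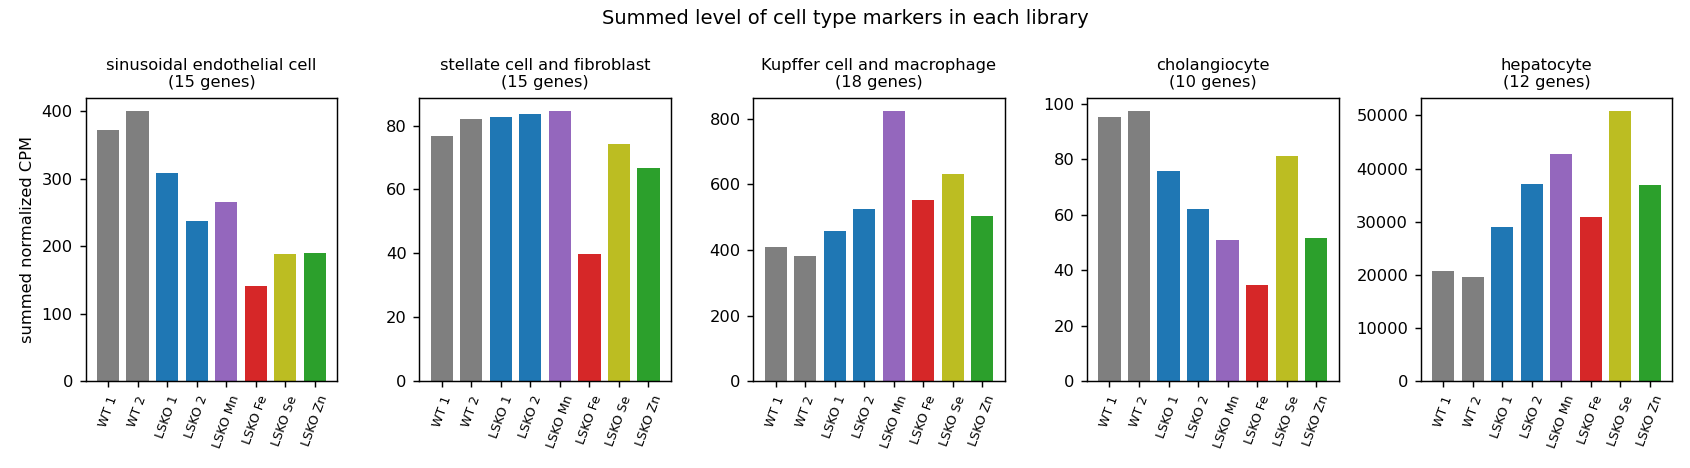
Summed normalized CPM (vertical axes, from 0) of 5 fixed sets of cell type markers in each of the 8 libraries, 1 bar per library, coloured as for the iron genes. The iron bar is the lowest of the 8 for endothelial, stellate and cholangiocyte markers, and lies within the range of the others for Kupffer cell and hepatocyte markers.

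Several lists of stress genes held higher calls and no lower ones. Of 21 immediate early genes and Myc, 9 were higher, none was lower, and the median was 0.52, against -0.00 for all genes. Egr1, an early growth response factor, had 89.3 and 89.1 CPM in untreated LSKO and 210 with iron (1.24, edgeR adjusted p = 1.13e-05), beside 215 with manganese, 119 with selenite and 159 with zinc. Fos had 4.98 and 6.7 and then 16.3 (1.47), with 18.5, 13 and 14.1 in the other treated libraries, so the manganese library was the highest for both. Atf3 (183 and 143, then 296) and Myc (140 and 118, then 199) had the iron library the highest of the 8, as did Jun (139 and 134, then 201) and Klf6 (562 and 518, then 827). The other higher genes were Ier2 (0.53), Dusp1 (0.52) and Fosl1. Against WT cells Atf3 had 0.40 and was not called, and Fosl1 (0.64) was lost without LSKO replicate 2 or either WT library.

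The unfolded protein response list had 5 of 25 higher, none lower, and a median of 0.26. In 17 of the 25 the iron library was above all others, against 20.1% of all protein-coding genes tested. Hspa5, the main chaperone of the endoplasmic reticulum, had 2978 and 2965 CPM in untreated LSKO, 3282 and 3143 in WT, 3040, 3146 and 3045 with manganese, selenite and zinc, and 4398 with iron. Its log2 fold change was 0.57 (standard error 0.0904, edgeR adjusted p = 0.00309), and 0.45 against WT, under the threshold of 0.5. Dnajb9 had 167 in both untreated LSKO libraries and 267 with iron (0.67), and Hyou1 147 and 152 and then 231 (0.62). Pdia4 and Creld2 rose by 0.50 and 0.51, and Creld2 fell short of the threshold without LSKO replicate 1 or either WT library. The spliced factor gene Xbp1 (0.05) and Calr (-0.04) were not called.

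In the ATF4 list 6 of 25 genes were higher, none lower, and the median was 0.24. It was 0.39 without LSKO replicate 1, 0.084 without LSKO replicate 2 and -0.11 against WT. Ppp1r15a, which reverses the translation block of stress, had 89.5 and 70.6 CPM in untreated LSKO and 169 with iron (1.08, edgeR adjusted p = 0.000398). Gdf15, a secreted stress factor, had 53.9 and 51.3 and then 97.6 (0.89), with the other libraries between 52.4 and 67.1. Trib3, Atf3, Nupr1 and Slc3a2 were the other higher genes, while the amino acid enzymes Asns (0.12), Psat1 (0.18) and Phgdh (0.21) were not called. Heat shock genes had 4 of 19 higher and none lower, with a median of 0.23 (0.14 without LSKO replicate 1). The inducible Hspa1a and Hspa1b, near copies of each other, had 39.6 and 66.3 CPM with iron against 9.38 to 19.3 and 18.3 to 33.7 in untreated LSKO. WT cells had 24.2 and 31.7 for Hspa1a, where it was not called (0.51), and its call was lost without either WT library. Hspa8 and Hspb8 rose by 0.64 and 0.61. Hspa8 shares 56.6% of its transcript with other genes, and had 2024 and 2222 CPM in untreated LSKO, 2165 with manganese and 3309 with iron. The selenite library was higher (3369), and WT (2413 and 2306) and zinc (2654) were also above untreated LSKO and manganese. Of 21 p53 targets 2 were higher, Gadd45a (0.93) and Mdm2 (0.50), the second lost without LSKO replicate 2 (0.43) or either WT library.

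Glycolysis, lactate and hypoxia genes had 5 of 21 higher, none lower, and a median of 0.27, which came to 0.12 when LSKO replicate 1 was left out and to 0.50 when replicate 2 was. Ndrg1, a hypoxia-responsive gene, had 230 and 206 CPM in untreated LSKO and 379 with iron (0.80, edgeR adjusted p = 0.000679), above the other 5 libraries at 199 to 258. Adm (adrenomedullin) rose from 13.8 and 12.1 to 21.8 (0.75), and Vegfa (vascular endothelial growth factor A) from 66 and 73.4 to 105 (0.59), below the 119 of manganese. Pkm and Pgam1 rose by 0.61 each, fell short of the threshold without LSKO replicate 1 (0.46 and 0.48) and were not called against selenite and zinc (0.25 and 0.01). Gluconeogenesis genes had 3 of 16 higher, Tat, Irs2 (0.79) and Gpt (0.53), and the Gpt call was lost without LSKO replicate 1 (0.30) or either WT library. The circadian clock list had 4 of 20 higher, Nr1d1, Ciart, Nfil3 and Per1, and none lower, with a median of 0.07 (0.025 without LSKO replicate 2), while the activators Arntl and Clock had -0.00 and 0.22. Ciart was lost without LSKO replicate 2 or either WT library, and Per1 without LSKO replicate 2.

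Of 74 nuclear genes of oxidative phosphorylation, 14 were lower, none was higher, and the median was -0.31. In 48 the iron library was below all 7 others, against 16.4% of all protein-coding genes tested. Most single changes were modest: Atp5k, a subunit of ATP synthase, had 31 and 29.4 CPM in untreated LSKO and 17.2 with iron (-0.81), Atp5e 90.2 and 95.8 and then 62.1 (-0.58), and Ndufc1, a subunit of complex I, 28.1 and 28.4 and then 18.9 (-0.58). Many of these mRNAs are short. Among protein-coding genes with a mean log2 CPM of at least 2, the shortest 10% by longest annotated transcript had a median of -0.14. With a correction for length and GC content the list's median was -0.25 with 6 lower, against WT it was -0.18 with 2 lower, and against selenite and zinc -0.63 with 50 lower.

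Of the 13 genes of the mitochondrial genome, 9 were lower, none was higher, and the median was -0.78. mt-Nd5, a subunit of complex I, had 4493 and 3595 CPM in untreated LSKO, 4423 and 4923 in WT and 2354 with iron (-0.78), and mt-Cytb of complex III had 2885 and 2243 and then 1495 (-0.78). mt-Nd5, mt-Nd6 and mt-Cytb were also low with manganese (2280, 461 and 1941 CPM), and in 3 of the 13 genes the iron library was the lowest of the 8. The manganese levels of mt-Nd5 and mt-Nd6, which overlap an opposite-strand exon, may not compare with those of the other libraries. mt-Co1, the most abundant, had -0.19 and was not called. The larger falls of mt-Co2 and mt-Co3 (-1.69 and -1.92) come from 10.9 and 6.58 CPM with iron, and 99.5% and 99.9% of those transcripts are shared with other annotated genes.

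Secreted liver proteins were lower in part, and most of those differences turned on the control. Coagulation genes had 7 of 28 lower and none higher (median -0.31), plasma carriers and apolipoproteins 6 of 23 lower and 1 higher (-0.34), and acute phase proteins 4 of 22 lower and 1 higher (0.04). Serpind1, the thrombin inhibitor heparin cofactor II, had 41.5 and 46.2 CPM in untreated LSKO, 36.8 and 34.6 in WT and 16.8 with iron (-1.38, edgeR adjusted p = 0.000103), below all other libraries. F3 (tissue factor) and Apoc1 fell by 0.84 and 0.73 and were also the lowest of the 8 with iron, though neither was called against WT (-0.46 and -0.15). Fga, the fibrinogen alpha chain, had 261 and 440 CPM in untreated LSKO, 171 with iron and 76.2 and 72.5 in WT, so it fell by 1.04 against untreated LSKO, stood at 1.20 against WT, and lost its call without either WT library. The medians of the coagulation, carrier and acute phase lists were -0.47, -0.45 and -0.16 without LSKO replicate 1, -0.32, -0.11 and 0.23 without LSKO replicate 2, and 0.30, 0.37 and 0.78 against WT. The 4 lower acute phase genes were Hamp, Steap4, Fga and Fgb. The acute phase gene that rose was Saa3 (24.7 and 36.3 CPM, then 67.5), which had 148 with manganese and 160 with selenite, and the carrier was Serpina7, the thyroxine-binding globulin (1.14). Clu, an abundant secreted chaperone outside these lists and chosen after its values were seen, had 5505 and 4608 CPM in untreated LSKO and 2936 with iron, the lowest of the 8 (-0.78).

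Inflammatory genes fell more than they rose. Of 21 NF-kB and cytokine targets 4 were lower and none was higher. In 10 the iron library was the lowest of the 8, against 16.4% of all protein-coding genes tested. Ikbke, a kinase of that pathway, had 63.5 and 64.9 CPM in untreated LSKO and 28.6 with iron (-1.17, edgeR adjusted p = 8.16e-05), the adhesion molecule Vcam1 33.9 and 24.7 and then 10.2 (-1.52), and the inhibitor Nfkbia 66 and 63.4 and then 37.3 (-0.79). Irf1, the other of the 4, fell by 0.82 and was not called against WT (-0.36). Chemokine genes had 3 of 18 lower and 2 higher, with a median of -0.58 (-0.37 without WT replicate 1). Ccl2, a monocyte attractant, had 239 and 248 CPM in WT, 191 and 150 in untreated LSKO, 76.9 with iron and 519 and 503 with selenite and zinc (-1.15, edgeR adjusted p = 0.000599), and Ccl6 and Ccl7 fell by 1.56 and 1.75. The higher ones, Cxcl2 (2.86 and 3.31 CPM, then 6.73) and Cxcl10 (8.63 and 9.12, then 20.5), had up to 17.4 and 26.6 CPM in other treated libraries. Interferon response genes had 4 of 22 lower and none higher, with a median of -0.53, which was -0.87 without LSKO replicate 1, -0.21 without LSKO replicate 2 and 0.90 against WT. Irf7 shows the pattern, with 49.3 and 48.3 CPM in WT, 115 and 200 in untreated LSKO and 83.3 with iron. Its call and that of Ddx58 were lost without LSKO replicate 2 (-0.48 and -0.43), and those of all 4 genes without either WT library.

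Matrix, adhesion and cell cycle genes were lower in part. Extracellular matrix and TGF beta genes had 7 of 30 lower, 1 higher and a median of -0.73, and actin, adhesion and YAP targets 11 of 33 lower and 1 higher (-0.27), the higher one being Actg1, which shares 56.3% of its transcript. Col5a2 had 3.22 and 3.09 CPM in untreated LSKO and 1.05 with iron (-1.59), and Tgfb1, the ligand of that pathway, 7 and 4.93 and then 2.59 (-1.19). The matrix median was -0.14 against selenite and zinc, where Col3a1, Col5a1 and Col5a2 were not called. The higher matrix gene, Lox, had 28 and 36 reads in untreated LSKO and 67 with iron and was lost without either untreated LSKO library. Lgals1 (galectin 1) had 76.3 and 50.0 CPM and then 21.2 (-1.57), Tagln 17.2 and 13.5 and then 6.68 (-1.20) and Myl9 6.3 and 5.7 and then 2.24 (-1.42). Of 29 cell cycle genes 4 were lower (Ccnd1, Top2a, Mki67 and Birc5) and 1 higher (Mcm7, 0.52), with a median of -0.29 (-0.17 without LSKO replicate 1). Birc5 had 20 reads in each untreated LSKO library and 2 with iron, and the calls of Birc5 and Mki67 were lost without either WT library, that of Birc5 also without LSKO replicate 1. The medians of the chemokine and cell cycle lists, each with 1 gene at 0 reads in the iron library, were the same with that gene at a floor of 3 reads.

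**Figure D5:**
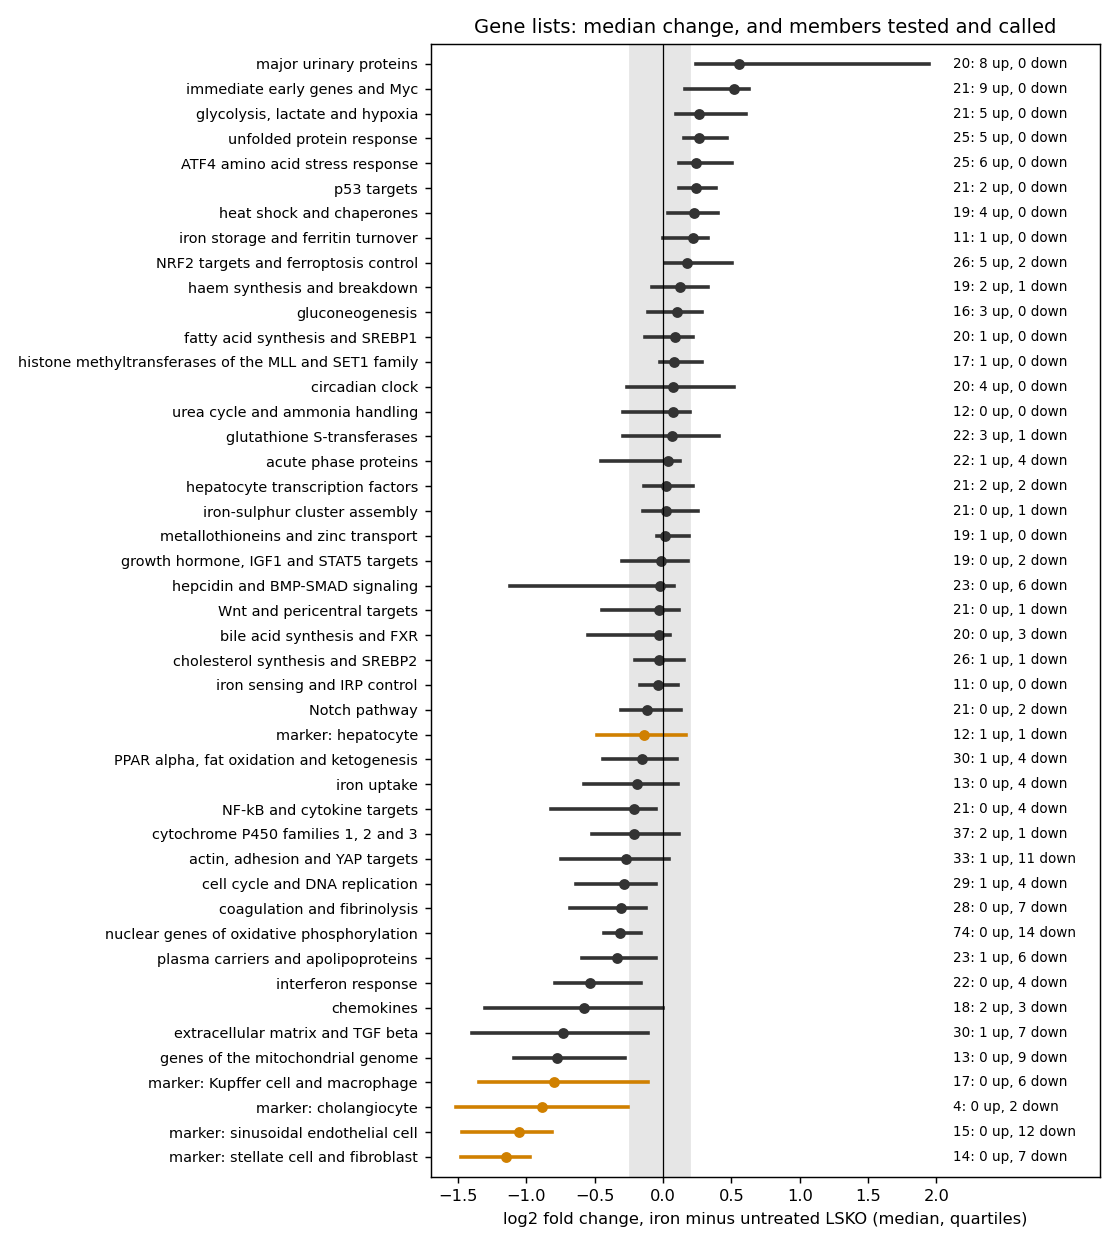
Median (dot) and quartiles (line) of the log2 fold change of iron against untreated LSKO for each list with at least 4 genes tested, with the cell type markers in orange, the quartiles of all protein-coding genes as a grey band, and the number tested, called higher and called lower at the right. Major urinary proteins and immediate early genes lie highest, with medians of 0.56 and 0.52, and stellate and endothelial markers lowest, at -1.15 and -1.06.

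The remaining metabolic lists held few calls. Glutathione S-transferases had 3 of 22 higher, Gsta1, Gsta2 and Gstm2, and 1 lower, Gstt1 (-0.58), and all 3 higher genes were lower than in selenite and zinc (-0.78, -0.79 and -0.67). The calls of Gstm2 and Gstt1 were lost without WT replicate 1, that of Gstt1 also without WT replicate 2 or LSKO replicate 2. Of 37 genes of the P450 families, 2 were higher, Cyp2a5 and Cyp1a1, and Cyp2c68 was lower (-1.20), while the median of -0.21 was -0.42 without LSKO replicate 1, 0.0022 without LSKO replicate 2 and 0.64 against WT. Cyp1a1 had 13 and 18 reads in untreated LSKO and 44 with iron, and its call was lost without either untreated LSKO library. The PPAR alpha list had 1 of 30 higher, Pdk4 (0.77), and 4 lower, with Cyp4a14 at -1.14 the largest, and Vnn1 fell by 0.66. The ketone body enzyme gene Bdh1 fell by 1.01 but stood at 0.11 against WT and lost its call without LSKO replicate 2 or either WT library. Bile acid genes had 3 of 20 lower, Baat, Nr5a2 and the bile acid receptor Nr1h4, none of them called against WT (1.02, -0.28 and 0.09), and without LSKO replicate 2 Baat and Nr1h4 were lost, Baat also without either WT library. Cholesterol synthesis genes had Insig1 higher (0.64) and Ebp lower (-0.54) of 26, fatty acid synthesis genes Acacb higher (0.76) of 20, and zinc handling genes only Slc39a11 higher (0.60) of 19, with no metallothionein called. The Acacb call was lost without either WT library and that of Ebp without LSKO replicate 2. No urea cycle gene was called among 12. Hepatocyte transcription factors had Cebpa (0.64) and Gata4 (0.54) higher and Nr5a2 and Nr1h4 lower of 21, and the Gata4 call was lost whichever untreated library was left out. The growth hormone and IGF1 list had Igfbp3 (-2.01) and Socs2 (-0.65) lower of 19, the Notch list Dll4 (-1.64) and Notch4 (-1.13) lower of 21, and the Wnt list Fzd4 (-0.94) lower of 21. Dll4 and Notch4 were not called against selenite and zinc (-0.20 and -0.08), and Notch4 was lost without either WT library. The endothelial markers, 12 of 15 lower, moved with both. The histone methyltransferase list had Setd1a higher (0.65) of 17, lost without LSKO replicate 2 or either WT library.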

How the data were processed

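Total RNA of primary mouse hepatocytes was sequenced in 8 libraries, of which the iron library and the untreated LSKO pair were compared. The authors aligned reads with HISAT2 (GRCm38) and deposited raw counts per gene from HTSeq, and their processing notes also name Trimmomatic and DESeq2. The minimum alignment quality, strand setting and annotation release of the counting were not found in the sources used here. The 5 summary rows of each file (reads in no gene, ambiguous, low in quality, unaligned or aligned to several places), which hold 57.9% to 60.7% of all rows' reads outside manganese (27.8% there), stayed out of library sizes and tests. All 55450 identifiers matched GENCODE M21, which gave symbols, classes, positions, transcripts and UTRs. That release was chosen here.

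Genes with at least 80 reads over the 8 libraries (a mean of 10) were fitted in edgeR 4.0.16 (R 4.3.3) with TMM scaling and its quasi-likelihood test, 1 term for each of 6 groups. Iron had 1 library, so the spread came from the replicated untreated WT and LSKO pairs (2 residual degrees of freedom, 8.53 prior degrees of freedom, common biological variation 8.29%). P-values were adjusted by Benjamini-Hochberg over all 15468 genes tested. Calls needed both an adjusted p below 0.05 and a change of more than 0.5 on the log2 scale. With 1 iron library, variation between iron-treated cultures was not measured. The script was tested on simulated data drawn with the fitted spread for every library, which cannot test whether iron cultures vary more than untreated ones.

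The genes named were Slc39a8, the 12 largest rises and falls (mean of at least 100 normalized counts, iron beyond both untreated LSKO libraries, no clone-type symbol, major urinary protein genes counted as 1 entry), the 5 next in each direction with iron outside all 7 other libraries, the called genes of 3 iron lists with 7 fixed iron genes, and up to 4 called genes of each other list. Other named genes complete a list's small count, give a pathway's known members or were chosen after their values were seen, and a few genes that the rule or lists hold are not reported here. The 47 gene lists (1008 symbols, 1007 matched) and the rules were chosen with earlier results of these data known.

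Alternatives were median-ratio scaling, DESeq2 1.42.0, fits over 5 or 3 libraries or without manganese, other count filters, each untreated library left out, untreated WT or the mean of selenite and zinc as the control, a length and GC correction, genes without opposite-strand overlap or without shared 75-base stretches, and stricter thresholds. Sequence sharing was computed from 75-base stretches of the annotated transcripts. Promoters came from RefSeq (GRCm38.p6). Figures were drawn with matplotlib 3.10.9.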

Additional observations from a re-analysis of the deposited data

How the results depend on the processing

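The counts of 347 higher and 537 lower genes came from 1 iron library, and the fit assumes that iron cultures vary like the untreated ones. DESeq2 called 191 higher and 279 lower genes, of which 143 and 237 had iron outside the other 7 libraries. Without a filter on low counts 806 were lower. With untreated WT as the control 799 were higher, and with selenite and zinc 1178 were higher and 1214 lower, but 155 of the 347 higher and 314 of the 537 lower genes kept their calls against WT, and 218 and 402 against selenite and zinc. Without genes overlapping an opposite-strand exon 353 were lower, and 176 of the higher genes had iron above the other 7. With a log2 fold change beyond 1, 76 and 259 genes remained, 39 and 231 of them outside the other 7, and at an adjusted p under 0.01 187 and 219, 139 and 196 of them outside. Leaving out 1 untreated library gave 244 to 411 higher and 388 to 770 lower genes, with 188 to 300 and 336 to 481 outside the other 7. The causes were not tested beyond the fewer genes or stricter limits of those settings.

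Of the genes compared that the rule names, 12 changed sign with untreated WT as the control: Rps27rt (-0.11), Uimc1 (-0.13), Nphs1 (-0.26), Nr1h4 (0.0903), Fgb (0.66), Apoa5 (0.37), Gbp2 (0.26), Irf7 (0.77), Bdh1 (0.11), Baat (1.02), Fga (1.20) and Oasl2 (0.29). With selenite and zinc 17 did: Mup13 (-1.09), Mup10 (-0.65), Rps27rt (-0.82), Mup22 (-0.49), Mup12 (-1.22), Mup19 (-0.73), Uimc1 (-0.51), Nphs1 (-0.72), Eno1b (-0.0726), Mup8 (-1.37), Gsta1 (-0.78), Cxcl10 (-0.0188), Saa3 (-0.79), Serpina7 (-0.10), Gsta2 (-0.79), Mup7 (-0.87) and Gstm2 (-0.67). Slc39a8 was 0.29 without LSKO replicate 1 and 0.51 with selenite and zinc, called in neither. No other alternative changed a sign among them. No paired analysis was possible because iron has 1 library, which shares no pair of replicate numbers with the untreated groups.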
